A study of Homo sapiens with 118 samples.

Results

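The BCL2 family was examined here as 10 genes chosen by symbol: BCL2, BCL2L1, MCL1, BAX, BAK1, BID, BIK, BMF, BCL2L11 and PMAIP1. They were read by 19 of the 22068 probe rows with a value in every library, out of 19470 gene symbols. The rule of the choice used no measured value, though earlier results of these data were known when it was made. Counts came from TempO-Seq, a targeted assay in which paired detector oligos are ligated on an RNA and the ligated product is sequenced, so that each row counts 1 probe. The cells were HepaRG, a human hepatic line that can mature into hepatocyte-like and biliary-like cells. One field of the labels calls them progenitor cells, whereas the growth protocol describes differentiated cells.

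Cells were exposed for 72 h to 1 of 8 histone deacetylase inhibitors, each at 5 concentrations, with C1 the lowest group and C5 the top one. Apicidin (a cyclic tetrapeptide) was given at 0.041722 to 0.86 µM, panobinostat (a hydroxamate) at 0.001468 to 0.084 µM and trichostatin A (a hydroxamate) at 0.018811 to 1.5237 µM. Mocetinostat (a benzamide) was given at 0.177222 to 3.9 µM. Scriptaid (a hydroxamate) was given at 4.94 to 94.5 µM, tacedinaline (a benzamide) at 1.14 to 44 µM and vorinostat (a hydroxamate) at 0.404778 to 23.5 µM, all 3 on the plate labelled E. The other 5 chemicals were on the plate labelled H, among them valproic acid, a branched short-chain fatty acid, at label values of 100.478 to 3038. The unit of those valproic acid values could not be settled from the labels, and they were compared with no other chemical.

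Replicates 1, 2 and 3 of a group were cells of different HepaRG batches. There were 118 libraries in 40 groups, 38 with 3 libraries and 2 with 2 (panobinostat C3 and trichostatin A C4). Library totals ran from 1061359 to 5250260 counts with a median of 3702007, and depth was lower at high concentrations of some chemicals (vorinostat C1 averaged 3038900 counts, C5 1485590). The reference of every comparison was C1 of the same chemical, which itself received the inhibitor at its lowest concentration. Solvent controls were not used here.

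In all, 6 libraries stood apart from their own group: replicate 1 of apicidin C4, replicate 3 of mocetinostat C2, replicate 1 of mocetinostat C3, replicate 2 of panobinostat C2, replicate 3 of scriptaid C4 and replicate 3 of trichostatin A C1. In each, the correlation of its profile with both group mates lay more than 0.25 below that between the mates. Replicates 1 and 2 of mocetinostat C2 in turn correlated with the panobinostat C2 library that stood apart (0.785 and 0.825). For calls at C5 or by trend that changed without these 8 libraries, both values are given. At C2 to C4 and between chemicals, both values are given for some rows only. The other calls that changed there enter the counts alone. Shares of all rows are given with all libraries only, so member counts from fewer libraries have no such share beside them.

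BCL2 family proteins meet at the outer membrane of mitochondria and set whether it is breached during apoptosis. Anti-apoptotic members (BCL2, BCL2L1, MCL1) hold the effectors BAX and BAK1 in check, and the BH3-only members (BID, BIK, BMF, BCL2L11, PMAIP1) relay stress by binding the anti-apoptotic proteins or the effectors. Histone deacetylase inhibitors raise histone acetylation, and BH3-only genes are among those known to respond to them in tumour cells.

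The 250 bases before the RefSeq start of 4 genes are shown 5′ to 3′ on the gene's strand (GRCh38.p14), because these genes hold the rows that passed the test at C5 in the most chemicals. Capitals mark every match, on either strand, to 4 short motifs. They are the GC box (GGGCGG), the CCAAT box, a TATA box written as TATAAA, and a site known from forkhead factors of the FOXO type (GTAAACA).
BMF, chr15:40108880-40109129, minus strand: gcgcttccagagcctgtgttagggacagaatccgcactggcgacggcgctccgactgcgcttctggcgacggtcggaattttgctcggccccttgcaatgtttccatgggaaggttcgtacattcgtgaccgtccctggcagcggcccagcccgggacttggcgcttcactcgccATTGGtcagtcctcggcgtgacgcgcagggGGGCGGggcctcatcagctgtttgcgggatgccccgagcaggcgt
BCL2L11, chr2:111120664-111120913, plus strand: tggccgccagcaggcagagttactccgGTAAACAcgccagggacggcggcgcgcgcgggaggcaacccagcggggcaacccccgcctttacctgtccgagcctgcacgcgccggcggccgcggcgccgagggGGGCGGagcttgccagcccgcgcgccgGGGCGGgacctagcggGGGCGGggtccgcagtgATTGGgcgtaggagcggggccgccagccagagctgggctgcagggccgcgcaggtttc
BAX, chr19:48954625-48954874, plus strand: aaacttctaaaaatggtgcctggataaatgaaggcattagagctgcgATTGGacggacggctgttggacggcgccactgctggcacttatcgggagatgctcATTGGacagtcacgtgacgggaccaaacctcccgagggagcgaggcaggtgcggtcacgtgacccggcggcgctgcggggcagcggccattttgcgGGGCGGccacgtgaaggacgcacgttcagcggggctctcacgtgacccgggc
BCL2L1, chr20:31723964-31724213, minus strand: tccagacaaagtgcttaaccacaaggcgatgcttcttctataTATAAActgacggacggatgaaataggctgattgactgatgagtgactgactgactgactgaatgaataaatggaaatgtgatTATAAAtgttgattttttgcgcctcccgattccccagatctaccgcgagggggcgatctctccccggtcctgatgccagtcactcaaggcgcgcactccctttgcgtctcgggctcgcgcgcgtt

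The GC box stood in the windows of BMF (1 match), BCL2L11 (3) and BAX (1), as it did in 42.6% of 35116 RefSeq windows of the same length. CCAAT was found once each in BMF and BCL2L11 and at 2 places in BAX, against 32% of all windows. The BCL2L1 window had neither and carried 2 matches to TATAAA (10.7% of all windows). GTAAACA was found in BCL2L11 alone among these 4, and in 2.98% of all windows. These letters describe the windows only. RefSeq windows were found for 8 of the 10 genes, BIK and MCL1 being the others.

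Of the 19 rows, 13 had enough counts to be tested in 7 chemicals and 12 in vorinostat, which made 103 tests in each comparison. The rows that were never tested were both rows of BAK1, the only row of BIK, the only row of PMAIP1, BCL2L1_660 and BCL2L11_29027. The BIK row had no count in 112 of 118 libraries and at most 12, and that of PMAIP1, which encodes NOXA, none in 100 and at most 6. BAK1_14344 and BAK1_631 were at 0 in 77 and 84 libraries, with at most 11 and 17 counts. BAK1, BIK and PMAIP1 therefore have no result, and what follows covers 7 of the 10 genes.

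A row was said to have risen or fallen where edgeR's quasi-likelihood test gave a Benjamini-Hochberg adjusted p under 0.05, over all rows tested in that chemical, together with a change of at least 1.5-fold. Levels are in CPM, counts scaled to a common library size, after TMM scaling over all libraries, and they were not compared between rows. At C5, 18 of the 103 member tests rose (17.5%), beside 11.6% of all tests over the 8 chemicals, and 14 fell (13.6%), beside 13.4%. Without batch 1, 11 rose. The rising share was thus above that of all rows, and the falling share was close to it. All 18 tests that rose were of BH3-only rows (of 63 tests), namely of BMF and BCL2L11, which have several tested rows each. Of the 14 that fell, 10 were of BAX, BCL2L1 or MCL1, the other 4 being of BID. Without the libraries that stood apart the counts were 20 and 16. With the probes of each gene summed, 12 rose and 15 fell, so that rises no longer outnumbered falls. Shares of all rows are not given for these settings or for the fit without batch 1.

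**Figure D1:**
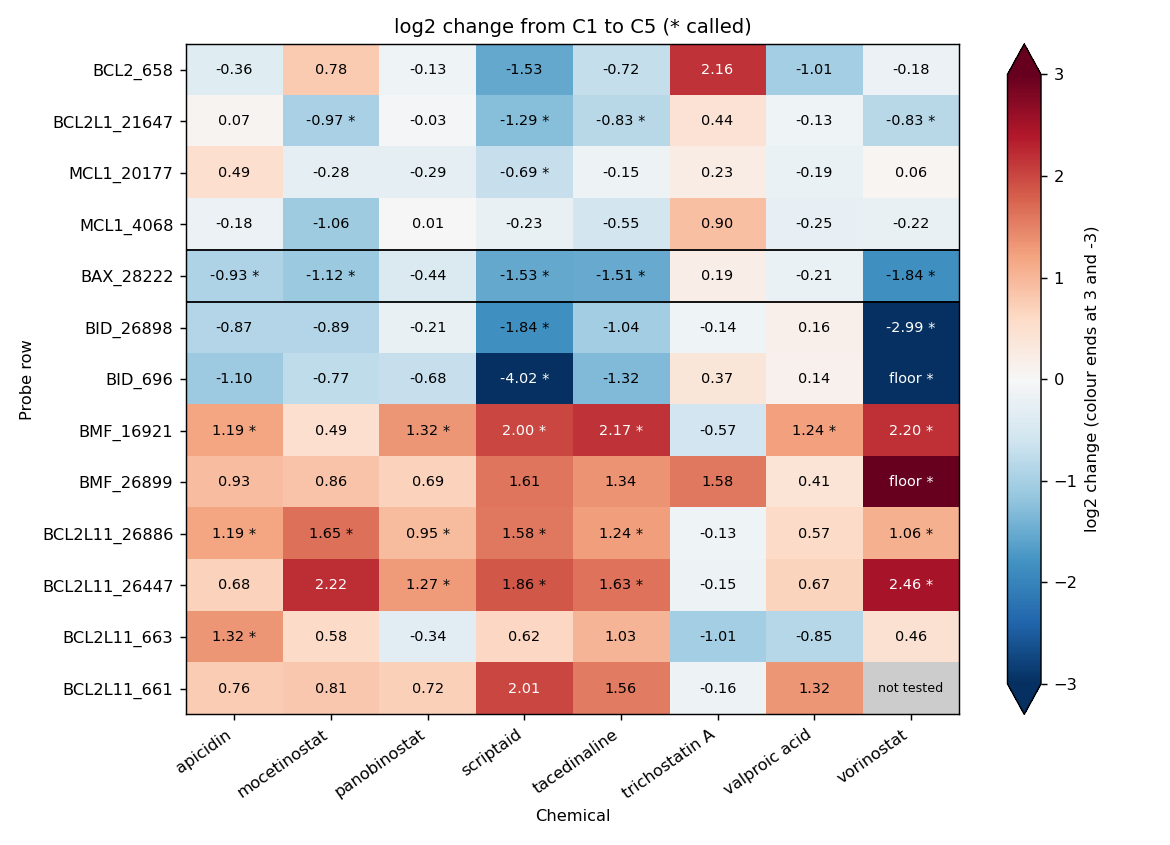
Log2 change from C1 to C5 for each tested member row (vertical) in each chemical (horizontal), with anti-apoptotic, effector and BH3-only rows in blocks from top to bottom. A star marks a test that passed, "floor" a cell in which a group had at most 3 counts in every library. BMF and BCL2L11 rows hold all stars in red, and BAX, BCL2L1, MCL1 and BID those in blue.

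The members that passed differed by chemical. Vorinostat had 4 that rose and 4 that fell of 12 rows (66.7%, beside 47.5% of all rows at C5), and scriptaid 3 and 5 of 13 (61.5% beside 29.8%). In apicidin (3 rose, 1 fell) and tacedinaline (3 and 2) the member shares were 30.8% and 38.5%, close to the 28.8% and 38.8% of all rows. These shares depend on the tool, since DESeq2 gave tacedinaline 4 that rose and 4 that fell (61.5%, beside 39.6% of all rows) and apicidin 3 and 2 (38.5% beside 31.4%). With 1 edgeR model of all libraries 4 also fell in tacedinaline, and without the libraries that stood apart 4 rose and 2 fell in apicidin. Mocetinostat had 1 that rose and 2 that fell (23.1% beside 30.5%), or 2 and 3 without the libraries that stood apart. Panobinostat had 3 that rose (23.1% beside 16.2%) and valproic acid 1 (7.69% beside 11.1%). Neither had a member that fell by edgeR or DESeq2, with 4 and 2 rows at an unadjusted p under 0.05 in either direction.

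Trichostatin A was the chemical in which no member passed with all libraries. At C5, 0 of 13 rows passed by edgeR or by DESeq2, 2 had an unadjusted p under 0.05, and only 0.0154% of all rows passed. Replicate 3 of its C1 stood apart. It had a BAX level of 386 CPM where replicates 1 and 2 had 732 and 715, and a BCL2L1 level of 1096 CPM where they had 696 and 711. Without it 104 rows of the whole table passed at C5, again with no member among them and 2 at an unadjusted p under 0.05. Without batch 3 as a whole, 1 member passed, BCL2L1_21647, with a rise of 0.87 (edgeR adjusted p = 0.0322).

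Members passed from C3 upward. At C2 no member passed by edgeR, beside 0.0865% of all tests, with 3 of 103 at an unadjusted p under 0.05 and 1 passing by DESeq2. At C3, 6 rose and 4 fell (beside 2.82% and 3.16% of all tests), and at C4, 15 and 13 (beside 7.85% and 8.14%). A straight line over the log2 concentrations, here called the trend, gave 22 that rose (21.4%, beside 12.7%) and 15 that fell (14.6%, beside 12.7%). Without the libraries that stood apart the trend gave 23 and 16, and C2 to C4 together 26 and 21 in place of 21 and 17. No share of all rows is given for that setting.

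Markers of several cell types differed between C1 and C5, and their part in the members' results was not tested. The summed hepatocyte level was lower in every C5 library than in any C1 library in 7 of 8 chemicals. All 10 hepatocyte markers were present, and their summed level went from 43590 to 57581 CPM at C1 to 3143 to 4467 CPM at C5 in tacedinaline. In vorinostat it went from 39760 to 49497 CPM to 3518 to 6646 CPM. The trichostatin A C1 libraries, 1 of which stood apart, held 14044 to 59335 CPM, which overlapped the 38557 to 50049 CPM of its C5 libraries. The sums are not given without that library. In such bulk samples, fewer cells of a type and less RNA per cell cannot be told apart. Markers of other cell types were low: 4 of 5 leukocyte and 3 of 4 endothelial symbols had a median under 1 CPM, as did 2 of 5 biliary symbols (EPCAM and CFTR) and 1 of 6 stromal ones (COL1A2). The summed biliary level was higher at C5 without overlap in 5 chemicals (apicidin, panobinostat, scriptaid, valproic acid and vorinostat), as in apicidin, where it went from 70.6 to 90.5 CPM at C1 to 143.7 to 173.0 CPM at C5. The stromal level was lower without overlap in 5 (apicidin, mocetinostat, tacedinaline, trichostatin A and vorinostat), in apicidin from 125.6 to 167.7 CPM to 66.8 to 71.5 CPM. The leukocyte and endothelial sums, up to 111.7 and 50.2 CPM, were lower without overlap in 2 and 3 chemicals. When every library was thinned to the depth of the shallowest, 17 member tests rose and 15 fell at C5.

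Among the BH3-only genes, BMF rose in 6 chemicals. BMF encodes a protein that is kept on the cytoskeleton and released by stress or loss of attachment. In tacedinaline the row BMF_16921 had 16.7, 10.6 and 4.42 CPM in replicates 1, 2 and 3 at C1 and 53.5, 39.3 and 30.9 CPM at C5, a log2 change of 2.17 ± 0.36 (SE, edgeR, Benjamini-Hochberg adjusted p = 2.87e-06). In vorinostat the C1 libraries had 13.8, 13.6 and 9.34 CPM and the C5 libraries 72.8, 41.4 and 43.9 CPM, a change of 2.2 ± 0.33 (adjusted p = 1.19e-06). Scriptaid took it from 16.0, 9.31 and 11.5 CPM to 56.5, 40.3 and 45.4 CPM, a change of 2.00 ± 0.41 (adjusted p = 0.00112). In these 3 chemicals, all on plate E, every C5 library was above every C1 library.

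On plate H the BMF changes were smaller. Apicidin C1 libraries had 21.6, 20.8 and 18.9 CPM and C5 libraries 52.9, 43.8 and 43.2 CPM (log2 change 1.19 ± 0.22, edgeR adjusted p = 0.000254). Panobinostat gave 15.8, 16.4 and 5.96 CPM at C1 and 36.6, 35.6 and 25.0 CPM at C5 (1.32 ± 0.34, adjusted p = 0.00823). For valproic acid they were 12.4, 11.8 and 14.2 CPM and 23.2, 33.3 and 34.4 CPM (1.24 ± 0.27, adjusted p = 0.00372). The groups did not overlap in any of the 3, and for valproic acid BMF_16921 was the only member row that passed at C5. The difference between plates was not tested. Without batch 1 the panobinostat (1.39, adjusted p = 0.106) and valproic acid (1.37, adjusted p = 0.0548) changes did not pass, nor did that of valproic acid without batch 2 (1.12, adjusted p = 0.0597).

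Mocetinostat raised BMF at its middle concentrations. At C2, where the change did not pass by edgeR and every library was among those set aside as standing apart, the mean level of BMF_16921 was 38.2 CPM. It was 43.1 at C3, 44.1 at C4 and 26.7 at C5. It passed at C3 (log2 change 1.13 ± 0.29, edgeR adjusted p = 0.0184, and 0.99 without the libraries that stood apart) and C4 (1.19 ± 0.29, adjusted p = 0.0071) but not at C5, where libraries of 25.5, 25.3 and 29.4 CPM overlapped the C1 libraries of 21.5, 12.3 and 26.2 CPM (0.49 ± 0.29, adjusted p = 0.221). The trend of 0.67 did not pass with all libraries (adjusted p = 0.173) and passed without those that stood apart (0.82, adjusted p = 0.0392). In trichostatin A the level of BMF_16921 was 12.7, 8.56 and 23.0 CPM at C1 and 7.68, 12.7 and 8.82 CPM at C5 (change -0.57 ± 0.36, adjusted p = 0.651), and the change was -0.12 without the C1 library that stood apart.

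**Figure D2:**
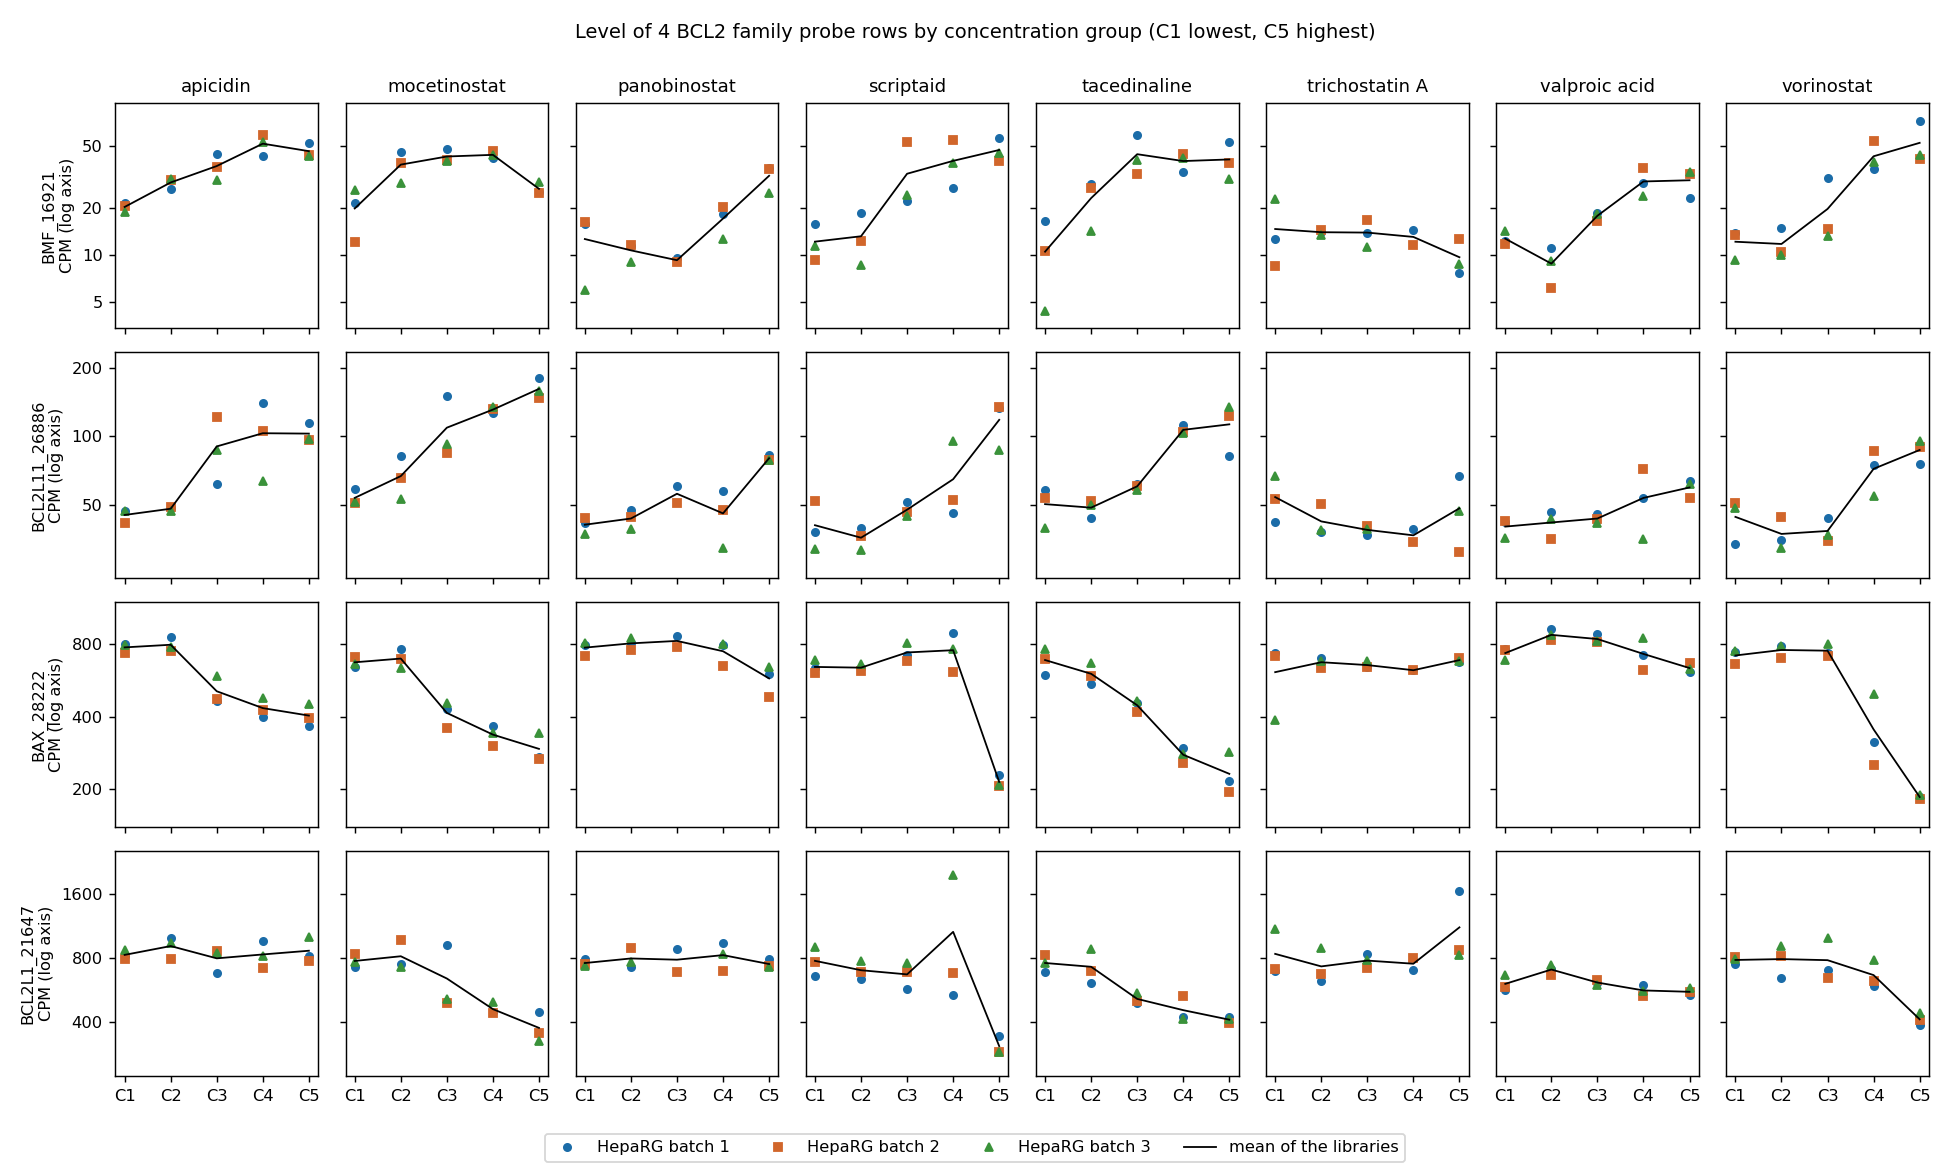
Level of 4 member rows (one per line of panels, CPM on a log axis) at the 5 concentrations of each chemical (columns of panels), with a point for each library, shaped by HepaRG batch, and a line through the group means. BMF_16921 and BCL2L11_26886 climbed and BAX_28222 dropped in most chemicals, while trichostatin A stayed within 9.74 to 14.8 CPM for the mean of BMF_16921.

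The lowest concentration at which BMF_16921 passed was C3 in apicidin (0.3755 µM), mocetinostat (1.595 µM) and tacedinaline (10.29 µM). In tacedinaline the change was already 2.25 ± 0.36 at C3 (edgeR adjusted p = 7.02e-06) and was 2.12 at C4 and 2.17 at C5. It passed from C4 in scriptaid (60 µM), valproic acid and vorinostat (10.929 µM), and only at C5 in panobinostat (0.084 µM). Without the libraries that stood apart it passed from C3 in scriptaid too (1.44, adjusted p = 0.0138). The second BMF row, BMF_26899, had a median of 9 counts per library. By edgeR it passed at C5 in vorinostat alone, where the C1 libraries held 0, 0 and 2 counts and the C5 libraries 14, 11 and 0. This makes C5 at least 4.99-fold higher, taking 3 counts per library as the floor. Replicate 3 of C5 was at 0, like the lowest C1 libraries, and the call was lost without batch 1 or 2 (adjusted p = 0.125 and 0.0648). In vorinostat edgeR also called the row as rising at C4 (adjusted p = 0.00505) and by trend (adjusted p = 0.000516), with C1 at the floor. That trend call was kept under all 13 settings. In scriptaid DESeq2 called this row at C5 (1.65, adjusted p = 0.0488). There edgeR called it by trend (2.21, adjusted p = 0.0267), which was lost under 4 of 13 settings.

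BCL2L11, which encodes BIM, a BH3-only protein that binds all anti-apoptotic members, was read by 5 rows, of which 4 were tested. The most counted, BCL2L11_26886, rose at C5 in 6 chemicals. In mocetinostat, which showed the largest of these changes, C1 libraries had 58.8, 51.3 and 51.6 CPM and C5 libraries 179, 147 and 158 CPM (log2 change 1.65 ± 0.25, edgeR adjusted p = 0.000111). In scriptaid they had 38.4, 52.3 and 32.2 CPM and then 133, 135 and 87.0 CPM (1.58 ± 0.31, adjusted p = 0.000769). For tacedinaline the values were 58.3, 53.7 and 39.8 CPM and 82.5, 122 and 134 CPM (1.24 ± 0.20, adjusted p = 2.3e-06). Each C5 library of these 3 chemicals was above all C1 libraries.

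Apicidin took BCL2L11_26886 from 47.1, 41.8 and 47.3 CPM to 115, 96.8 and 97.3 CPM (1.19 ± 0.26, edgeR adjusted p = 0.00127). Vorinostat took it from 33.8, 51.0 and 48.9 CPM to 76.1, 89.9 and 95.9 CPM (1.06 ± 0.22, adjusted p = 0.00017). The smallest change that passed was in panobinostat, from 41.8, 43.9 and 37.7 CPM to 83.2, 79.1 and 78.7 CPM (0.95 ± 0.21, adjusted p = 0.00297), which was lost without batch 1 (0.93, adjusted p = 0.0622). In valproic acid, the C5 libraries of 63.8, 54.0 and 61.8 CPM were above those of C1 (42.4, 42.7 and 36.0 CPM), but the change of 0.57 did not pass (adjusted p = 0.104). Trichostatin A libraries overlapped between C1 (42.2, 53.5 and 67.3 CPM) and C5 (67.0, 31.4 and 47.2 CPM), with a change of -0.13 (adjusted p = 0.924), or 0.04 without the C1 library that stood apart.

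BCL2L11_26886 first passed at C3 in apicidin and mocetinostat, at C4 in tacedinaline and vorinostat, and at C5 in panobinostat and scriptaid. The mocetinostat C3 change was 1.03 with all libraries and 0.68 without those that stood apart, and passed both ways. For tacedinaline, BMF_16921 passed a concentration earlier, at 10.29 µM, where the change of BCL2L11_26886 was 0.29 (adjusted p = 0.407). The difference between these changes was not tested. In mocetinostat the BCL2L11_26886 mean went on from 109 CPM at C3 to 131 at C4 and 161 at C5, while that of BMF_16921 went from 44.1 CPM at C4 to 26.7 at C5.

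The second BCL2L11 row, BCL2L11_26447, rose at C5 in 4 chemicals. Vorinostat had the largest change, from 14.4, 16.1 and 17.7 CPM at C1 to 76.9, 98.4 and 74.3 CPM at C5 (2.46 ± 0.33, edgeR adjusted p = 1.43e-07). It also passed in tacedinaline (1.63 ± 0.25, adjusted p = 8.12e-07), scriptaid (1.86 ± 0.42, adjusted p = 0.00265) and panobinostat (1.27 ± 0.43, adjusted p = 0.0458). The panobinostat change had an adjusted p of 0.228 without batch 1, 0.323 without batch 3 and 0.0589 with the batch as a block, and the scriptaid change 0.0897 and 0.0539 without batches 1 and 2. In mocetinostat all 3 C5 libraries (112, 91.3 and 88.4 CPM) were above all C1 libraries (21.5, 31.6 and 12.7 CPM), and the change of 2.22 ± 0.87 missed the threshold (adjusted p = 0.0635). Without the libraries that stood apart it was 2.15 ± 0.24 (adjusted p = 4.28e-08). The apicidin change of 0.68 likewise passed without them (adjusted p = 0.0223, against 0.22 with all). With no low-count filter both changes passed by edgeR, at 2.14 in mocetinostat (adjusted p = 0.00957) and 0.67 in apicidin (adjusted p = 0.0496). By trend with all libraries both passed too, at 2.61 in mocetinostat (adjusted p = 0.0162) and 0.93 in apicidin (adjusted p = 0.0484). These trend calls were lost under 1 and 4 of 14 other settings.

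The relation of these 2 rows was not the same in every library. The ratio of BCL2L11_26447 to BCL2L11_26886 had a median of 0.603 over the 118 libraries and reached 1.26. In 8 libraries it was under 0.2, a limit set for description, with values from 0.013 to 0.196, and the next library was at 0.246. These were replicates 1 and 2 of mocetinostat C2, replicate 1 of mocetinostat C3, replicate 2 of panobinostat C2, replicate 1 of apicidin C4, replicate 3 of valproic acid C4, replicate 3 of scriptaid C4 and replicate 3 of vorinostat C3. Of the 8, 4 were among the 6 libraries that stood apart. The probe sequences and the transcripts each row reads were not used here.

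**Figure D3:**
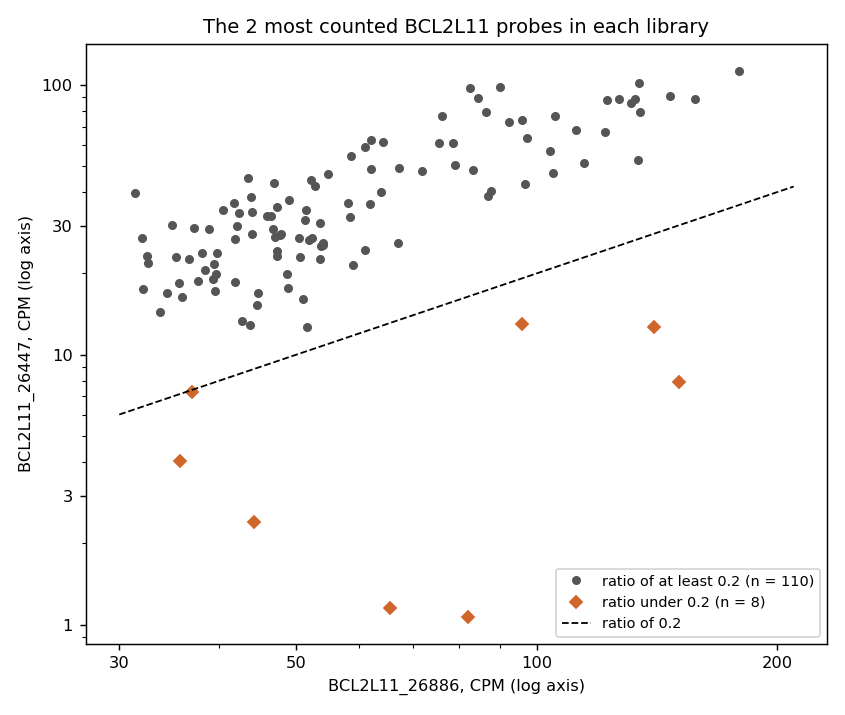
Level of BCL2L11_26447 (vertical) against BCL2L11_26886 (horizontal) in each library, both in CPM on log axes, with the line of a ratio of 0.2. The ratios run on across the line: the highest of the 8 libraries under it is at 0.196 and the lowest of the other 110 at 0.246.

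Among the rows with lower counts, BCL2L11_663 (median 25.5 counts) passed by edgeR at C5 in apicidin alone (1.32 ± 0.46, edgeR adjusted p = 0.0355). Its counts went from 18, 26 and 11 at C1 to 30, 75 and 24 at C5, and the CPM of the groups overlapped. Leaving out any 1 batch lost the call (adjusted p = 0.0698 to 0.218). At C4 of apicidin it passed with all libraries (1.46, adjusted p = 0.0257) and not without the one that stood apart (1.22, adjusted p = 0.0703). In tacedinaline DESeq2 called it at C5 (1.02, adjusted p = 0.048). There edgeR called it at C4 (1.09, adjusted p = 0.0404) and by trend (1.23, adjusted p = 0.00556), the trend call being lost without batch 1. BCL2L11_661 (median 7 counts) passed at C5 in none of the 7 chemicals in which it was tested, by edgeR or DESeq2, and had no unadjusted p under 0.05 there.

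BID, by contrast, fell at C5 in vorinostat and scriptaid, and in apicidin, mocetinostat and tacedinaline under some settings. By trend with all libraries, BID_26898 and BID_696 each fell in 4 chemicals. Besides vorinostat and scriptaid these were apicidin (-1.29 and -1.47, edgeR adjusted p = 0.00516 and 0.00467) and tacedinaline (-1.74 and -1.73, adjusted p = 0.00131 and 0.00364). The vorinostat and tacedinaline trend calls held under every setting. Those of apicidin were each lost under 1 setting, and those of scriptaid under 2 and 1. BID is cut by caspase-8 downstream of death receptors and carries their signal to mitochondria. In vorinostat BID_26898 had 19.9, 19.6 and 18.7 CPM at C1 and 0, 5.71 and 0 CPM at C5 (-2.99 ± 0.66, edgeR adjusted p = 0.000316). The other row, BID_696, had 19, 75 and 47 counts at C1 and none in any of the 3 libraries of C5, so that C5 was at least 7.80-fold lower (adjusted p = 5.96e-06). With library totals down to 1061359 counts, a level of 0 there allows up to 3 counts per library. Both rows of the gene fell in this chemical.

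In scriptaid BID_26898 went from 24.9, 25.8 and 23.3 CPM to 7.22, 5.11 and 7.73 CPM (-1.84 ± 0.40, edgeR adjusted p = 0.00198). BID_696 went from 75, 83 and 66 counts to 3, 7 and 0 (-4.02 ± 0.58, adjusted p = 4.72e-05). No C5 library reached a C1 library in either row, and without batch 2 the call of BID_26898 was lost (-1.64, adjusted p = 0.0584). At C4 vorinostat (-2.51 and -2.35 for BID_26898 and BID_696), apicidin and tacedinaline lowered both rows, and scriptaid lowered BID_696 (-1.91). Tacedinaline lowered BID_26898 from C3 (-1.33, adjusted p = 0.0493). The apicidin C4 changes were -1.56 and -1.70, and -1.60 and -1.87 without the library that stood apart. At C3 of apicidin both rows passed only without that library (adjusted p = 0.0246 and 0.0489). At C5 the apicidin changes of -0.87 and -1.10 did not pass (adjusted p = 0.0844 and 0.0711). Tacedinaline had -1.04 and -1.32 at C5 (adjusted p = 0.057 and 0.071), where no C5 library reached a C1 library in either row. With the batch as a block BID_26898 passed there (-1.09, adjusted p = 0.0483) and BID_696 did not (adjusted p = 0.0538), and DESeq2 called both. Without the libraries that stood apart, BID_696 passed in apicidin at C5 (-1.10, adjusted p = 0.0484) and BID_26898 in mocetinostat (-0.95, adjusted p = 0.0459, against -0.89 and 0.0999 with all). Both also passed with 1 edgeR model of all libraries (adjusted p = 0.0467 and 0.0386), and DESeq2 called BID_696 in apicidin (adjusted p = 0.0483). The changes of BID_26898 were -0.21 in panobinostat, -0.14 in trichostatin A and 0.16 in valproic acid, none of which passed.

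Of the effectors, BAX forms pores in the mitochondrial outer membrane once it is activated, and its single row, BAX_28222, fell at C5 in 5 chemicals. Vorinostat took it from 738, 662 and 747 CPM at C1 to 187, 182 and 190 CPM at C5, a log2 change of -1.84 ± 0.16 (edgeR, Benjamini-Hochberg adjusted p = 2.52e-11). In tacedinaline it went from 597, 695 and 765 CPM to 216, 195 and 285 CPM (-1.51 ± 0.14, adjusted p = 3.61e-12). In scriptaid it went from 633, 608 and 685 CPM to 229, 206 and 209 CPM (-1.53 ± 0.22, adjusted p = 4.56e-05). The 3 chemicals of plate E therefore left C5 means of 186 to 232 CPM, from C1 means of 642 to 716.

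Mocetinostat had 645, 708 and 660 CPM of BAX at C1 and 273, 268 and 342 CPM at C5 (-1.12 ± 0.18, edgeR adjusted p = 0.000167). Apicidin had 799, 733 and 787 CPM and then 367, 394 and 451 CPM (-0.93 ± 0.14, adjusted p = 2.33e-05). In panobinostat all C5 libraries (599, 484 and 643 CPM) were below all C1 libraries (793, 713 and 808 CPM), and the change of -0.44 had an adjusted p of 0.0383 but was smaller than 1.5-fold. Valproic acid had -0.21 ± 0.13 (adjusted p = 0.345) and trichostatin A 0.19 ± 0.19 (adjusted p = 0.814), the latter -0.06 without the C1 library that stood apart. The 5 BAX calls at C5 held without any 1 of the 3 batches.

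The shape of the BAX change over concentration differed. It passed from C3 in apicidin, mocetinostat and tacedinaline (-0.60, -0.68 and -0.61, the mocetinostat value being -0.76 without the libraries that stood apart) and from C4 in vorinostat (-0.97). The tacedinaline means stepped down from 685 CPM through 601, 446 and 278 to 232. In scriptaid the means were 642, 638, 737 and 753 CPM from C1 to C4, and then 215 CPM at C5, with no library of C5 above 229 CPM and none of C4 below 614. Its trend accordingly did not pass (adjusted p = 0.471), although C5 did.

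BCL2L1, the gene of BCL-XL, was the anti-apoptotic member that changed most often, and BCL2L1_21647 fell at C5 in 4 chemicals. Mocetinostat had 727, 830 and 762 CPM at C1 and 446, 352 and 323 CPM at C5 (-0.97 ± 0.23, edgeR adjusted p = 0.00436). Scriptaid had 654, 767 and 900 CPM and then 344, 288 and 288 CPM (-1.29 ± 0.37, adjusted p = 0.0128). Levels were 689, 821 and 757 CPM and then 420, 394 and 412 CPM in tacedinaline (-0.83 ± 0.13, adjusted p = 1.35e-06). Vorinostat gave 745, 811 and 788 CPM and then 385, 409 and 437 CPM (-0.83 ± 0.15, adjusted p = 2.4e-05). No C5 library of these 4 chemicals reached any C1 library. Without batch 2 the mocetinostat (-0.88, adjusted p = 0.0956) and scriptaid (-1.26, adjusted p = 0.155) calls were lost.

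In apicidin, by contrast, BCL2L1_21647 had a change of 0.07 ± 0.15 at C5, with 817, 788 and 870 CPM at C1 and 817, 769 and 1004 CPM at C5 (edgeR adjusted p = 0.762). The change was -0.03 ± 0.15 in panobinostat and -0.13 ± 0.12 in valproic acid (adjusted p = 0.929 and 0.578). Trichostatin A had 0.44 ± 0.25 (adjusted p = 0.594), with 1 library of C5 at 1648 CPM and the other C5 libraries at 868 and 821 CPM. The scriptaid C4 library that stood apart had 1964 CPM beside 534 and 681 CPM. Without it the scriptaid trend of -0.93 passed (adjusted p = 0.014), which with it was -0.35 (adjusted p = 0.683). Mocetinostat C3 passed without its own library that stood apart (-0.66, adjusted p = 0.00233, against -0.26 with it).

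MCL1, whose protein is made and degraded quickly, changed less. MCL1_20177 fell at C5 in scriptaid alone, from 341, 413 and 398 CPM to 252, 206 and 235 CPM (-0.69 ± 0.24, edgeR adjusted p = 0.0351), and not without batch 1 or 2 (adjusted p = 0.126 and 0.346). In apicidin the C5 libraries (660, 757 and 539 CPM) were all above the C1 libraries (501, 483 and 412 CPM), and the change of 0.49 had an adjusted p of 0.0186 but was under 1.5-fold. Its other 6 changes lay between -0.29 (panobinostat) and 0.23 (trichostatin A), and none passed. MCL1_4068, with a median of 38.5 counts, did not pass at C5 by edgeR or DESeq2 in any chemical, with 1 unadjusted p under 0.05.

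BCL2 itself was counted sparsely, with a median of 10 counts per library and at most 35. BCL2_658 did not pass at C5 in any chemical by edgeR or DESeq2, and had an unadjusted p under 0.05 in 1 of 8. That chemical was trichostatin A, with 3, 9 and 4 counts at C1 and 35, 12 and 25 at C5 (2.16 ± 0.73, edgeR adjusted p = 0.389). Standard errors of BCL2_658 at C5 were 0.69 to 0.87, so that changes near 1 could not be detected in this row. The fitted C5 changes of the row ran from -1.53 in scriptaid to 2.16 in trichostatin A.

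The genes whose levels followed BMF_16921 most closely over the libraries were MMP15_88664 (Pearson r = 0.80), a membrane-bound matrix metalloproteinase, FABP4_21799 (0.79), a fatty acid binding protein, and S100A8_88727 (0.79), a calcium-binding protein. These coefficients were taken over 118 libraries and 11288 rows after each chemical's mean was subtracted, and the libraries share concentrations and depth. BCL2L11_26886 had 0.61, BCL2L11_26447 0.39 and BMF_26899 0.53. BAX_28222 had -0.63, BID_26898 -0.60 and BID_696 -0.57. The values are a description and carry no test.

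Chemicals were compared where they stood on 1 plate at concentrations within 10% of each other. This gave 10 pairs, with p-values adjusted over all rows of all pairs together. Of 142 member tests, 20 passed (14.1%), beside 10.5% of all tests. They lay in 5 pairs, 4 of which involve libraries that stood apart. Without those libraries 8 pairs could be fitted, as mocetinostat C2 had none left, and 15 member tests passed. The share of all rows in those fits is not given.

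Apicidin and trichostatin A differed at about 0.5 µM (C4 of both). BMF_16921 had 52.1 ± 7.93 CPM (SD, n = 3) in apicidin and 13.1 ± 2.05 CPM (n = 2) in trichostatin A, a difference of 1.98 on the log2 scale (95% interval 1.32 to 2.64, edgeR adjusted p = 8.67e-06), and 2.07 without the apicidin library that stood apart. BCL2L11_26886 was higher in apicidin by 1.49 (0.93 to 2.05, adjusted p = 8.32e-05), or 1.17 without that library, and BID_696 differed by -2.17 (-3.02 to -1.31). In all, 4 members passed in this pair, beside 16.9% of all rows. At this concentration apicidin thus stood above trichostatin A for BMF_16921 and BCL2L11_26886 and below it for both BID rows. The other tested BCL2L11 rows did not pass with all libraries. Of these, BCL2L11_26447 had 1.55 (adjusted p = 0.186), and it passed without the apicidin library that stood apart (1.99, adjusted p = 0.000628). Classes of inhibitor were not compared.

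Mocetinostat, a benzamide, and trichostatin A were compared at 1.595 and 1.5237 µM. BMF_16921 had 43.1 ± 4.32 CPM in mocetinostat C3 and 9.74 ± 2.64 CPM in trichostatin A C5, a difference of 2.13 (95% interval 1.55 to 2.71, edgeR adjusted p = 1.08e-07), and 2.05 without the libraries that stood apart. BAX_28222 had 414 ± 50.3 and 685 ± 13.7 CPM, a difference of -0.74 (-1.03 to -0.44, adjusted p = 0.000202), and -0.76 without them. The pair had 5 members that passed, beside 16.9% of all rows. At 0.531667 and 0.5079 µM, 3 members passed (beside 12.2% of all rows), BMF_16921 among them with 1.57 (0.92 to 2.22), but every mocetinostat library there was among those set aside.

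Apicidin C4 and mocetinostat C2, at 0.5 and 0.531667 µM, differed in 5 member rows, beside 21.2% of all rows, with BAX_28222 at -0.71 (95% interval -1.01 to -0.42, edgeR adjusted p = 0.000331). That pair cannot be given without the libraries that stood apart. Scriptaid and tacedinaline, a hydroxamate and a benzamide, were set against each other at 44.46 and 44 µM. BAX_28222 had 737 ± 65.8 CPM in scriptaid C3 and 232 ± 47.2 CPM in tacedinaline C5, a difference of 1.65 (1.3 to 2, adjusted p = 1.09e-09). BCL2L11_26886 had 47.9 ± 3.63 and 113 ± 27.0 CPM, a difference of -1.26 (-1.74 to -0.78, adjusted p = 0.000163). In this pair 3 members passed, beside 25.1% of all rows, and BMF_16921 was not one of them.

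Tacedinaline and vorinostat, a benzamide and a hydroxamate, were compared at 3 concentrations, and 0 members passed by edgeR or DESeq2 in any. At an unadjusted p under 0.05 there were 1, 1 and 0 members, and 0.872%, 2.64% and 4.29% of all rows passed. At 10.29 and 10.929 µM the difference of BMF_16921 was 0.05 (95% interval -0.68 to 0.78), with 44.6 ± 13.2 and 43.2 ± 9.86 CPM. That of BAX_28222 was 0.34 (-0.01 to 0.69) and that of BCL2L11_26886 -0.24 (-0.73 to 0.25). These intervals leave room for differences of up to 0.78 for BMF, so that equal action is not shown. Apicidin C1 against panobinostat C4 and mocetinostat C1 against trichostatin A C3 also gave 0 members by either tool and 0 at an unadjusted p under 0.05, beside 2.32% and 1.7% of all rows.

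**Figure D4:**
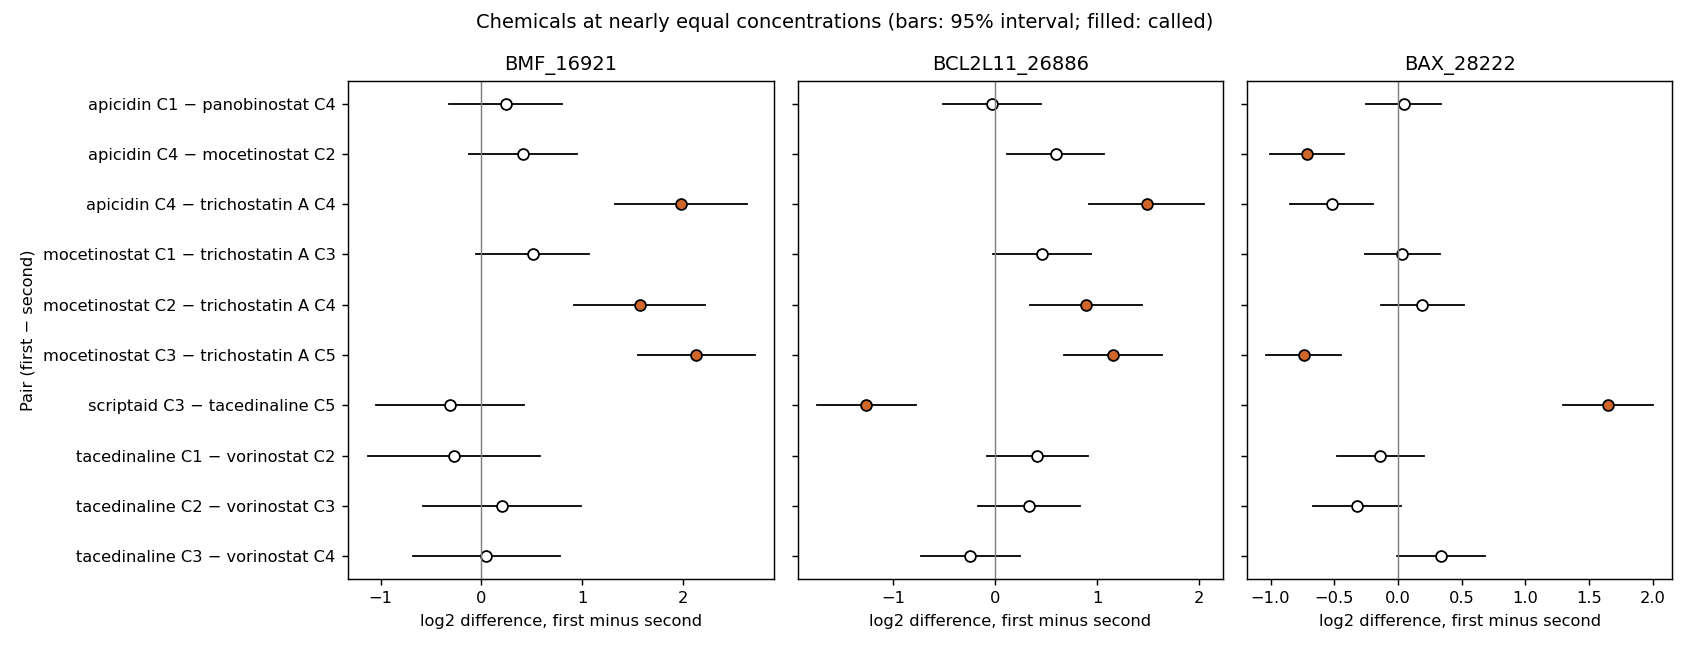
Log2 difference (horizontal) of 3 member rows between the chemicals of each pair (vertical), first minus second, with 95% intervals and filled points for differences that passed. All filled points of BMF_16921 are pairs with trichostatin A, at 1.57 to 2.13, and the 3 tacedinaline and vorinostat pairs have intervals that cross 0.

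Other genes of the same pathway were taken from lists by function, and their counts at C5 are read against 11.6% rising and 13.4% falling of all tests. Other BCL2 relatives moved seldom, with 6 of 101 tests rising (5.94%) and 6 falling. BCL2L12_92683 rose in 4 chemicals, up to 3.06 ± 0.39 in mocetinostat (edgeR adjusted p = 2.23e-05), and BOK_25776, an effector-like relative, fell in 3, to -1.72 ± 0.36 in vorinostat (adjusted p = 0.000165). BCL2L13_28316 passed in vorinostat alone (-4.31 ± 1.21, adjusted p = 0.00342). Caspases and apoptosome genes fell in 16 of 101 tests (15.8%) and rose in 4 (3.96%). CASP6_24079, an executioner caspase, fell in 6 chemicals, to -1.82 ± 0.29 in scriptaid (adjusted p = 0.000138), while CYCS_1692, cytochrome c, rose in 3.

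Death receptor genes showed the largest share of calls of the lists outside the family. They fell in 49 of 102 tests (48.0%), in which rows of a gene count separately. Among these falls were those of CFLAR_1270 in 6 chemicals, CFLAR_1269 in 4, TNFSF10_17292 in 5 and TNFSF10_7256 in 3. TNFSF10_7255, the death ligand TRAIL, fell in 7 chemicals, to -4.62 ± 0.43 in tacedinaline (adjusted p = 6.98e-12). FAS_2345, a death receptor, fell in 7, to -2.74 ± 0.29 in scriptaid (adjusted p = 1.83e-06), and TNFRSF10A_23823, a TRAIL receptor, in 7, to -2.55 ± 0.34 in vorinostat (adjusted p = 1.68e-07). CASP8_26967, the caspase that cuts BID, fell in 3. In trichostatin A, which was the exception for all 3 receptor and ligand genes, the changes were -0.15, -0.33 and -0.54.

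Among the genes that act on the turnover of MCL1 protein, FBXW7_25781, part of a ubiquitin ligase, rose in 4 chemicals, up to 1.60 ± 0.19 in vorinostat (edgeR adjusted p = 2.28e-08). USP9X_19690, a deubiquitinase, also rose in 4, up to 1.22 ± 0.12 in vorinostat (adjusted p = 6.42e-10). The changes of FBXW7_25781 in trichostatin A (-0.08) and of USP9X_19690 in valproic acid (-0.29) did not pass. Of the rows listed with them, HUWE1_3176 rose in 1 chemical, apicidin (0.73, edgeR adjusted p = 0.0104). BTRC_18066 fell in 1, vorinostat (-0.95, adjusted p = 0.00147). The other FBXW7 rows, FBXW7_27218 and FBXW7_27219, passed by edgeR in none of the 7 and 8 chemicals in which they were tested, and FBXW7_27219 had -0.53 in vorinostat (adjusted p = 0.0994), where FBXW7_25781 rose, so that the rows of this gene disagree.

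Inhibitor of apoptosis genes rose in 7 of 47 tests (14.9%) and fell in 5 (10.6%). All 7 that rose were of BIRC3_11879, which encodes cIAP2, with a change of up to 2.90 ± 0.16 in vorinostat (edgeR adjusted p = 8.61e-17) and of -0.09 in trichostatin A. XIAP_18704 fell in 2 chemicals, to -3.62 ± 1.09 in mocetinostat (adjusted p = 0.0185), and BIRC5_709, survivin, in 2, to -3.05 ± 1.08 in apicidin (adjusted p = 0.0366). Against these lists, the BH3-only members had 18 of 63 tests rising (28.6%) and 4 falling (6.35%). Rows of a gene count as separate tests here, and all 18 rises were of BMF and BCL2L11. With the probes of each gene summed, 12 member tests rose and 15 fell at C5. BAX, a single row, fell in 5 of 8, and in those 5 chemicals 28.8% to 47.5% of all rows passed in either direction.

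**Figure D5:**
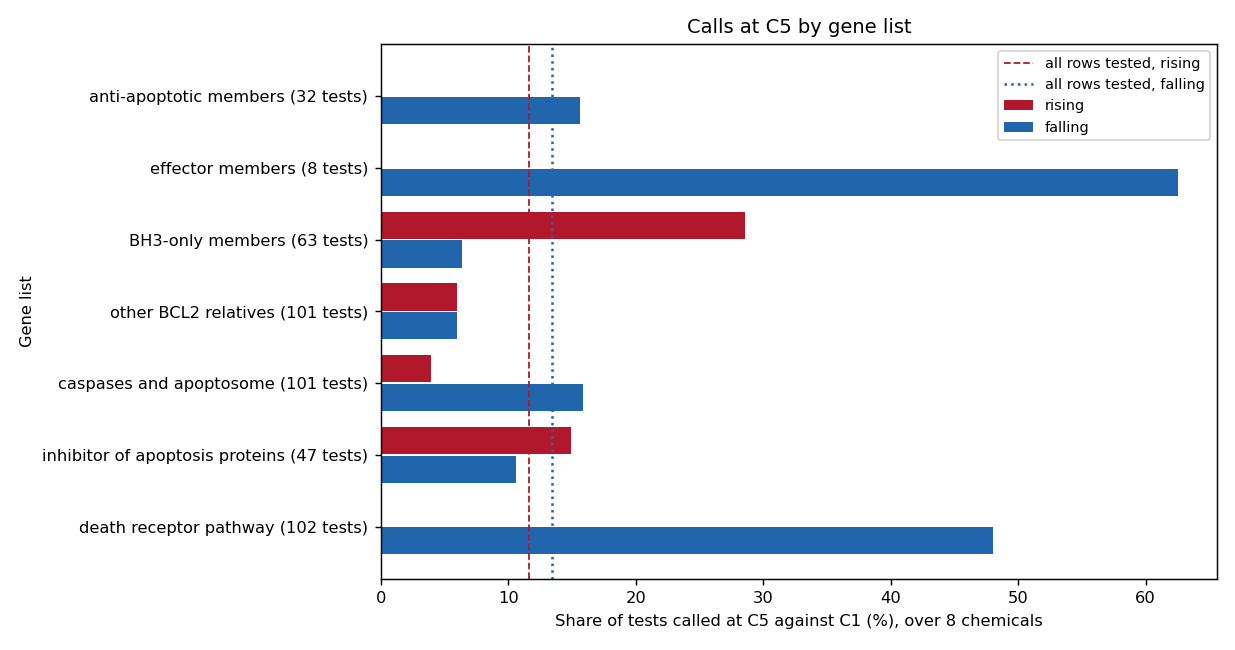
Share of tests (%, horizontal) that rose or fell at C5 against C1 for the member classes and 4 other lists (vertical), over 8 chemicals, with lines at the shares of all rows tested (11.6% rising, 13.4% falling). BH3-only members have the longest red bar, at 28.6%, and the effector row, BAX, the longest blue bar. Rows of a gene count as separate tests, and all BH3-only rises are of BMF and BCL2L11.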

How the data were processed

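The authors deposited raw counts per TempO-Seq probe for 118 HepaRG libraries. The submitters' processing notes name bcl2fastq 2.20.422, fastp 0.23.2, STAR 2.7.10b and DESeq2 1.38.0, while their settings and the genome build are not given in the sources used here. The counts were used as deposited. A row without a value in 88 libraries (SEC13) was left out. The rule for members used symbols alone, but members and lists were chosen with earlier results of these data known.

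Counts were fitted with edgeR 4.0.16 in R 4.3.3 (filterByExpr, TMM, quasi-likelihood), 1 model of the 5 groups per chemical, with C2 to C5 against C1 and a slope on log2 concentration. P-values were adjusted by Benjamini-Hochberg over all rows tested. A call needed an adjusted p under 0.05 and a 1.5-fold change. Near-matched pairs were fitted in 1 model per plate. Standard errors were taken as the absolute log2 change over the root of F. Scripts were tested on simulated data. Intervals and floors cover counting and replicate error in these libraries only, with a median depth of 3702007 counts.

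Named members were all those tested. From each other list the 3 rows called at C5 in the most chemicals were named, ties going to the larger median absolute change. Some further rows were named beside them. Some items of 2 of these lists are not reported here. Libraries stood apart where the correlation with both group mates lay over 0.25 below that between mates, over rows with a mean of at least 100 counts. No 2 libraries held identical counts.

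Alternatives were RLE scaling, no filter, DESeq2 1.42.0, the replicate number as a block, leaving out each batch, thinning, summed probes, 1 model of all libraries, the trend on concentration rank, the adjusted p alone, and leaving out trichostatin A C1 replicate 3. Leaving out the libraries that stood apart was chosen after seeing the data. The labels say that a replicate number marks a HepaRG batch, so the numbers pair the samples. Deviations from group means correlated at a median of 0.08 in 232 same-batch pairs and -0.04 in 464 others.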

Additional observations from a re-analysis of the deposited data

How the results depend on the processing

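Scaling, filter, DESeq2, thinning, 1 model of all libraries, the adjusted p alone and the replicate block left the counts of member calls over all chemicals within 1.5 times their values. Within single chemicals, counts at C5 moved by more (tacedinaline falling from 2 to 4 by DESeq2, apicidin falling from 1 to 2, mocetinostat rising from 1 to 2 without the filter). With the replicate block, 17 rose and 15 fell at C5, 20 and 17 at C2 to C4, 22 and 15 by trend, and 21 passed between near-matched concentrations. Among single results, the block lost 1 call (BCL2L11_26447 in panobinostat at C5) and gained 1 (BID_26898 in tacedinaline at C5). Leaving out 1 batch mattered more. C5 then gave 11 to 18 rising, 11 without batch 1. C2 to C4 together, 21 rising and 17 falling with all, gave 9 to 21 rising and 7 to 14 falling, the lowest without batch 2. Near-matched comparisons, 20 with all, gave 7 to 22, with 11 without batch 1 and 7 without batch 2. These fits had fewer samples, and no shares of all rows are given beside their counts. With the probes of a gene summed, which leaves fewer rows, 12 rose and 15 fell at C5. By trend 12 rose and 12 fell with summed probes, and 13 passed between near-matched concentrations. BCL2L11_663 in panobinostat, -0.34 at C5 and -0.42 by trend and not called, took the sign of its gene there (0.95 and 0.85). Without the libraries that stood apart, 26 rose and 21 fell at C2 to C4. RLE moved the median of all rows by at most 0.06 in size. Of 69 calls on single rows at C5 or by trend, 41 were kept under every alternative run and 28 were lost under 1 or more. Low counts limited BAK1, BIK, PMAIP1 and BCL2.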
